A study of Mus musculus with 9 samples.

Results

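Expression of the aquaporin genes Aqp1, Aqp3, Aqp4, Aqp5, Aqp7, Aqp8, Aqp9 and Aqp11 was followed in myeloid cells of a skin wound. These 8 members were taken by symbol from the 22180 genes measured, each through its probe set with 1 gene symbol and the highest mean over the arrays, and all 8 were found, with 1 probe set apiece. The set was chosen by its array values, with the levels in the 3 gates known and Aqp1 selected on being lowest in Ly6C medium, so their levels and differences are given as a description, with no test. The mice were C57BL/6J males at an age of 8 weeks. The plantar skin of a hindpaw was incised, and cells taken from it 24 h later were sorted as CD11b+Ly6G- into the gates Ly6C high, Ly6C medium and Ly6C low, with 3 arrays per gate and 9 in all. All gates came from wounded paws at the same time of 24 h after incision, and no unwounded paw is part of the comparison. The labels name no animals or pools, so the spread within a gate may be technical.

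Aquaporins are membrane channels that form tetramers in which every subunit has its own pore. Aqp1, Aqp4 and Aqp5 mainly carry water, Aqp3, Aqp7 and Aqp9 also carry glycerol and are called aquaglyceroporins, and Aqp8 and the intracellular Aqp11 are also linked to hydrogen peroxide transport. In leukocytes, water entry at the leading edge is tied to the change of cell shape during migration, and hydrogen peroxide taken up through aquaporins can act as a signal.

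The mean level of the Ly6C transcript followed the gates. Ly6c2, which encodes Ly6C, averaged 12.27 in Ly6C high, 11.22 in Ly6C medium and 8.33 in Ly6C low on the log2 scale, and low lay below high (log2 difference -3.94, limma adjusted p = 0.00102) and below medium (-2.89, limma adjusted p = 0.00895). Medium and high differed by -1.05, which did not pass (limma adjusted p = 0.527), although it did in 1 of the 9 fits that omit an array (low replicate 3, limma adjusted p = 0.0407). Itgam, which encodes CD11b, averaged 11.02, 10.90 and 10.58, and Ptprc, the pan-leukocyte CD45, 10.51, 10.35 and 10.12. Array medians over the genes measured lay between 4.16 and 4.30 and lower quartiles between 3.20 and 3.36. The files hold no detection call, so whether a dim probe set was above background was not assessed, and levels of different probe sets were not ranked against each other.

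Aqp1, the water channel of red cells, kidney tubules and many capillaries, was the 1 selected aquaporin whose arrays separated the gates. On the log2 intensity scale it stood at 6.86, 6.74 and 6.04 in the replicates 1 to 3 of Ly6C high, at 5.16, 5.20 and 5.17 in Ly6C medium, and at 9.04, 9.12 and 8.96 in Ly6C low. The gates did not overlap in any pair: every low array lay above every high array, and every high array above every medium array. Gate means were 9.04 ± 0.08 (SD, n = 3) in low, 6.55 ± 0.44 in high and 5.18 ± 0.02 in medium. In linear terms low was 5.62-fold above high (log2 difference 2.49, SE 0.19) and 14.5-fold above medium (3.86, SE 0.19), and medium was 2.59-fold below high (-1.37, SE 0.19). The step from high to medium, with 6.04 as the lowest high and 5.20 as the highest medium array, was the smallest of the 3 and larger than the SD of either gate. In sorted populations measured in bulk, fewer cells that express a gene and less RNA per cell cannot be told apart.

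The order of the gates was compared with that of other genes. With all arrays of the 3 gates apart, 166 of 22180 genes had the order low, medium, high and 163 the order high, medium, low, while 34 genes (0.153%) had the order of Aqp1, low, high, medium. The remaining orders were held by 29 genes (medium, high, low), 15 genes (high, low, medium) and 12 genes (medium, low, high), so the order of Aqp1 was less frequent than the graded orders and the most frequent of the rest. Among the 34 genes with the order of Aqp1, Aqp1 alone had a step of at least 1 on the log2 scale on both sides, a limit chosen after its values were seen. Since Aqp1 was selected for this order, the counts only place it among the other genes.

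**Figure D1:**
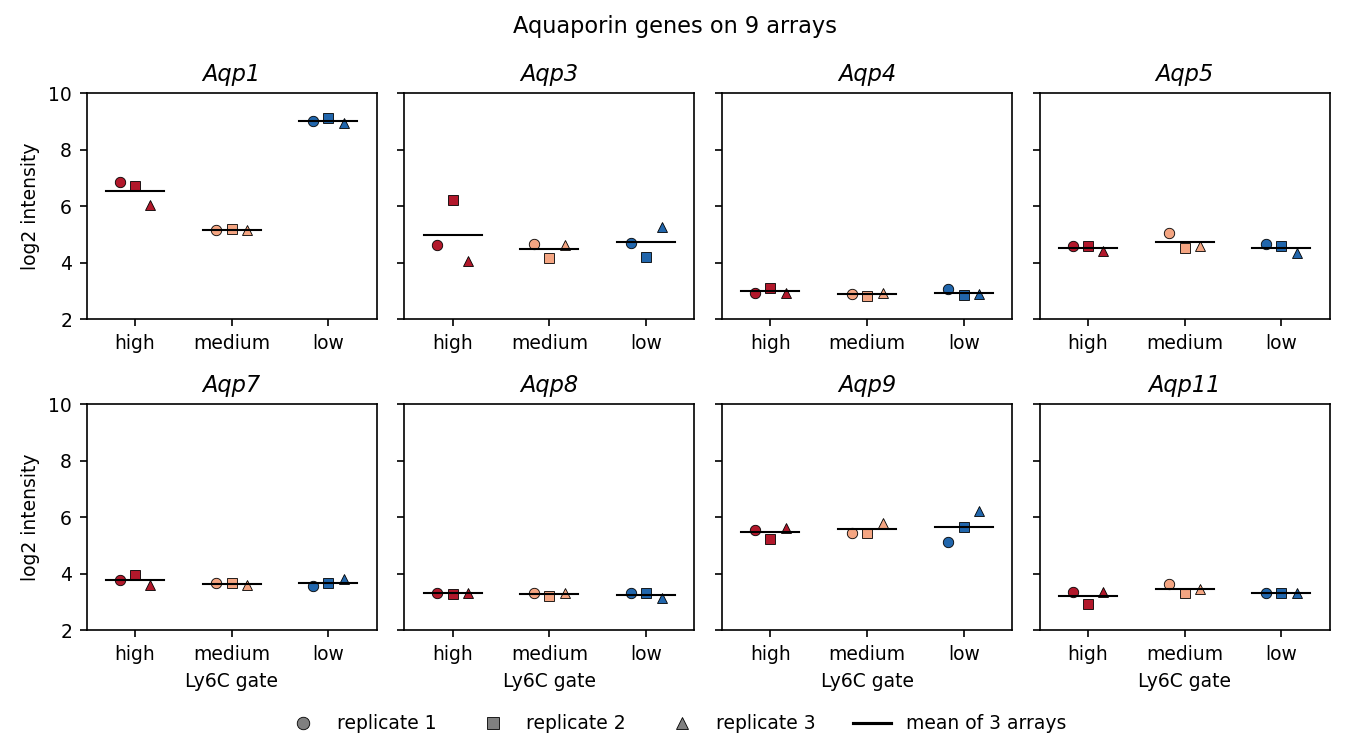
Log2 intensity of the 8 aquaporin genes (one panel per gene, same vertical axis) on the 9 arrays, by Ly6C gate; symbols mark replicates 1 to 3 and the bar their mean. Aqp1 lies at 5.16 to 5.20 in medium, 6.04 to 6.86 in high and 8.96 to 9.12 in low, while the gates of the other 7 genes overlap.

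The upstream region of Aqp1 is shown because the results turn on this gene. It comprises the 250 bases before the RefSeq start of transcription on the plus strand, chr6:55336049-55336298 in GRCm38.p6, where Aqp1 lies between Mindy4 and Ghrhr in the order of protein-coding genes. Capitals mark matches, on either strand, to the motifs searched:
Aqp1 upstream: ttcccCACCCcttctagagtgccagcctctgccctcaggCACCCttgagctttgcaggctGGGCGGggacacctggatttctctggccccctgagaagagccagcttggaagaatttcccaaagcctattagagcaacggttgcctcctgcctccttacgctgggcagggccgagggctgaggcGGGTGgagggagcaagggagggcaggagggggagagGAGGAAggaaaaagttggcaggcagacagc
The window held 1 GC box (GGGCGG), 3 CACCC boxes (CACCC, bound by Krüppel-like factors) and 1 match to the core motif of PU.1 (GAGGAA), the myeloid master factor, 30 to 25 bases before the start, and no match overlapped another. Of 32851 windows of this length in the RefSeq promoter table, 32.7% held a GC box, 52% a CACCC box and 23.3% the PU.1 core. No TATA box (TATAAA), AP-1 site (TGANTCA) or hypoxia element core (ACGTG) was found in it, against 12.4%, 6.75% and 16.6% of all windows. The table holds windows of 7 members, and the PU.1 core was found upstream of 3 of them, Aqp1, Aqp7 and Aqp8, the CACCC box upstream of 6 and the GC box upstream of Aqp1, Aqp3 and Aqp5. These matches describe letters and are no evidence of binding.

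The genes of resident tissue macrophages, like Aqp1, were mostly highest in low, but most of their means lay above high in medium, where Aqp1 lay below. Of 10 such genes measured, 7 passed as higher in low than in the high gate with limma at an adjusted p under 0.05, and 0 as lower. Over all genes 3.35% passed as higher and 2.32% as lower. All 10 reached a log2 value of 6 on at least 3 arrays. Among such bright genes 7 of the 10 passed as higher and 0 as lower, against 715 and 590 of 6306. Cd163, a scavenger receptor for haemoglobin complexes, averaged 6.17, 8.10 and 10.21 in high, medium and low and rose at both steps, from high to medium (log2 difference 1.94, limma adjusted p = 0.0176) and from medium to low (2.11, limma adjusted p = 0.00414). The first of these calls failed in 3 of the 9 fits with an array omitted (highest adjusted p 0.0968, medium replicate 1 omitted) and with only the compared gates in the fit (0.116). Vsig4, a complement receptor, averaged 3.07, 4.32 and 7.60 and rose from high to low by 4.53 (limma adjusted p = 0.000105). Lyve1, a hyaluronan receptor, rose from high to low by 4.28, Timd4, a receptor for dying cells, by 3.44, and the mannose receptor gene Mrc1 by 1.29 (limma adjusted p = 0.00181, 0.00143 and 0.000846). Between medium and high, limma passed 1 of the 10 genes, Cd163, as higher and 0 as lower. In medium the means of 9 of the 10 genes were above those of high, and the exception, the growth factor receptor gene Csf1r, was lower by 0.06, whereas Aqp1 was lower by 1.37, and the difference between these changes was not tested. Over the 9 arrays all 10 genes correlated positively with Aqp1, with Pearson's r from 0.335 (Cd68) to 0.789 (Vsig4), as a description over arrays that share the gates. Summed over the 10 genes, linear intensity ranged over 6905 to 8620 in high arrays, 8893 to 10850 in medium arrays and 14236 to 16473 in low arrays. Dendritic cell markers were likewise higher in low than in high for 6 of 9 genes, and the 3 gates had sums of 351 to 458, 493 to 565 and 2277 to 3094. Of the 9 dendritic cell genes, 7 had an r with Aqp1 between 0.774 (Ccl17) and 0.908 (Flt3), and the exceptions were Cd209a (-0.092) and Xcr1 (-0.581). The part of either cell type in the level of Aqp1 was not tested.

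**Figure D2:**
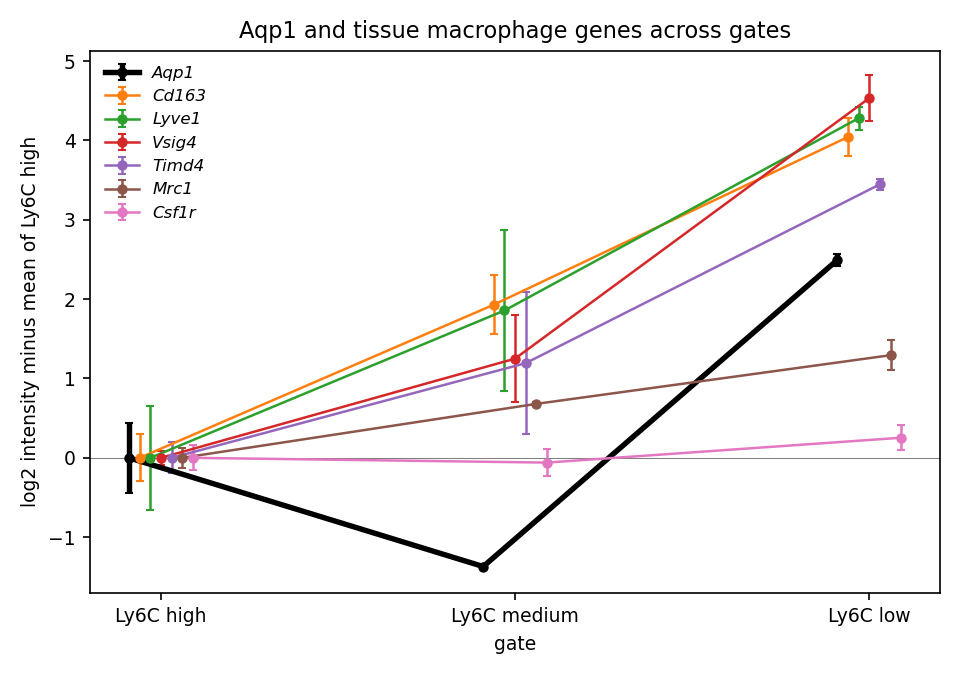
Mean log2 intensity of Aqp1 and 6 tissue macrophage genes in each gate, minus that gene's mean in Ly6C high; error bars are the SD over 3 arrays. Aqp1 (black) drops by 1.37 in medium and stands 2.49 above high in low, while Cd163, Lyve1, Vsig4, Timd4 and Mrc1 lie above high in medium and higher in low, and Csf1r stays within 0.25 of its level in high.

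Fibroblast markers went the same way as Aqp1 from high to medium and the opposite way in low. Of 10 fibroblast markers, all of them above a log2 value of 4 on at least 1 array, 8 passed as lower in medium than in high, against 0.198% of all genes, and 0 as higher, while 0.239% of all genes passed in either direction. The count fell to 1 with high replicate 2 or any single medium array omitted, to 2 with low replicate 2 omitted and to 5 with high replicate 1 or low replicate 1 omitted, and with only these gates in the fit limma called 0 of 10, against 10 at an unadjusted p under 0.05 in the fit of all gates. Dcn, the matrix proteoglycan decorin, averaged 10.70, 8.34 and 7.35 in high, medium and low (medium minus high -2.36, limma adjusted p = 0.00145, and 0.0707 with only these gates in the fit). The summed fibroblast signal, 7182, 5043 and 3203 in the replicates 1 to 3 of high, was 777 to 799 in medium arrays and 428 to 456 in low arrays, without overlap. Within high it ran in the same order as Aqp1, replicate 3 being lowest in both, and so did the endothelial sum (554, 411 and 362). The erythroid (32.3, 28.3 and 23.7), adipocyte (520, 421 and 417) and Schwann cell sums (53.8, 52.4 and 48.7) shared this order, and those of the other lists did not. With 3 arrays few orders are possible, so nothing is read from it. In low, where Aqp1 was highest, all 10 fibroblast markers were lower than in high. Of 10 endothelial markers, Tek and Esam below a log2 value of 4 on every array, Kdr passed as lower in low (-0.86, limma adjusted p = 0.0308, failing in 5 of the 9 fits with an array omitted, at most 0.105, low replicate 2 omitted) and 0 were higher. The endothelial sum was 266 to 269 in medium and 214 to 327 in low. Only 2 of 8 erythroid markers were measured, Slc4a1 and Epb42, and the sums were 23.7 to 32.3, 25.2 to 27.2 and 19.3 to 26.7 in the 3 gates. In low the fibroblast sum was lowest and the endothelial sum lay below that of every high array. Whether other cells add to the level of Aqp1 in high or in low was not tested.

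The genes most like Aqp1 over the 9 arrays were sought among 1490 genes with an SD of at least 0.5. The highest Pearson correlations belonged to Shmt2, a mitochondrial enzyme of serine and folate metabolism (r = 0.966; means of 6.27, 6.05 and 7.36 in high, medium and low), Kit, the stem cell factor receptor (0.963; 4.36, 4.17 and 5.26), and Eng, the TGF-beta co-receptor endoglin (0.959; 7.25, 6.58 and 8.03). The lowest belonged to Dmxl2, a regulator of the proton pump (r = -0.983; 8.18, 8.62 and 7.31), the organic cation transporter gene Slc22a4 (-0.937; 7.24, 7.48 and 5.79) and the vascular growth factor gene Vegfa (-0.913; 9.59, 9.68 and 8.28). Kit is also a marker of mast cells, and of the 8 mast cell and basophil genes measured limma passed 1, Kit itself, as higher in low than in either other gate. Of the others, Cma1, Ms4a2 and Mcpt8 stayed below a log2 value of 4 on every array, Tpsb2 reached 4.14 and Mcpt4 4.64, and Hdc, which makes histamine, lay between 6.01 and 8.13. Cpa3, a mast cell protease gene, averaged 3.54, 3.75 and 4.61 in high, medium and low, with every low array above every high array, a difference that did not pass (1.07, limma adjusted p = 0.326), and its r with Aqp1 was 0.529. The part of mast cells in the pattern of Aqp1 or Kit was not tested. All these values rest on the same 9 arrays and on differences between 3 gates, and the spread of each of these 6 genes over the gates was smaller than that of Aqp1.

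The other 7 aquaporins overlapped between all gates. With Aqp1, 1 of the 8 members had the arrays of low and high fully apart, against 20.1% of all genes, and the count was the same for medium and high (10.7% of all genes) and for low and medium (16.8%). Because the members were chosen with these values known, nothing is read from the shares. Their gate differences lay between -0.25 and 0.20 for low minus high, between -0.50 and 0.25 for medium minus high, and between -0.18 and 0.25 for low minus medium. The median over all 8 members was -0.02, -0.06 and 0.06, beside 0.01, 0.03 and -0.02 over all genes.

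**Figure D3:**
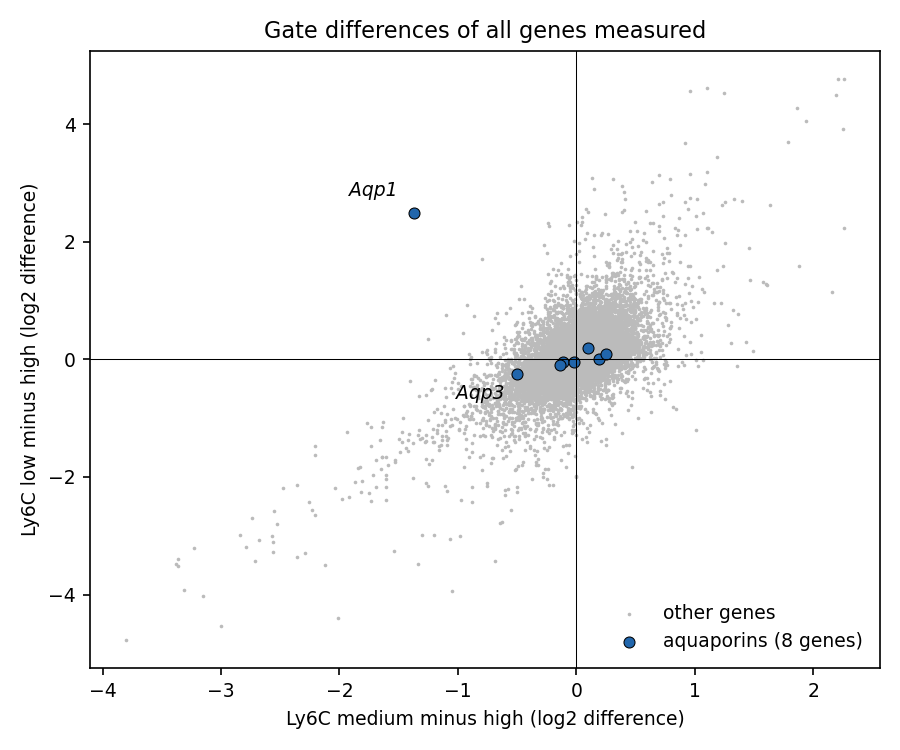
Log2 difference of Ly6C low minus high (vertical) against medium minus high (horizontal) for 22180 genes (grey) and the 8 aquaporins (blue); both axes share the 3 arrays of Ly6C high, so a diagonal trend follows in part from the design. Aqp1 lies apart in the upper left quadrant at -1.37 and 2.49, and the other 7 aquaporins lie within 0.50 of 0 on both axes.

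Among the aquaglyceroporins, Aqp3, the glycerol channel of basal keratinocytes, varied most within a gate. Its log2 intensities were 4.65, 6.24 and 4.08 in Ly6C high, 4.66, 4.18 and 4.65 in medium and 4.72, 4.21 and 5.29 in low, for means of 4.99 ± 1.12 (SD, n = 3), 4.49 ± 0.27 and 4.74 ± 0.54. High replicate 2 stood well above the next highest array, at 5.29, and the order of the gates turned on it: medium minus high was -0.50 with all arrays and 0.13 without it, and low minus high went from -0.25 to 0.37. The same array had the highest summed signal of 7 keratinocyte markers, 625 against 439 and 181 in the other high arrays, 230 to 325 in medium and 235 to 248 in low. Of these markers Dsg3 and Lor stayed below a log2 value of 4 on every array, and 0 of 7 passed between any gates with limma. Low replicate 3, the next highest for Aqp3, had a keratinocyte sum of 235, the lowest of its gate. The part of keratinocyte RNA in Aqp3 was not tested.

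Aqp9, the glycerol and urea channel of liver and of neutrophils and monocytes, had log2 intensities of 5.55, 5.24 and 5.63 in high, 5.45, 5.45 and 5.81 in medium and 5.12, 5.66 and 6.24 in low. The gate means of 5.47 ± 0.21 (SD, n = 3), 5.57 ± 0.21 and 5.67 ± 0.56 differed by less than the SD of Ly6C low. In every gate replicate 3 was highest, and replicate 3 also had the highest summed signal of 10 neutrophil markers in its gate. The sums were 1248 against 730 and 1052 in high, 2324 against 977 and 1217 in medium, and 2820 against 643 and 1014 in low. The largest terms were S100a8 and S100a9 in replicate 3 of medium (10.07 and 9.29) and of low (10.37 and 9.42). In high replicate 3 they were Mmp8 (8.52) and S100a8 (8.28). The marker genes went different ways between low and high, with Retnlg higher (3.91, limma adjusted p = 0.00712) and Mmp8 (-2.78, 0.00222) and Csf3r (-1.13, 0.0269) lower, the last call failing in 5 of the 9 fits with an array omitted (at most 0.0977, low replicate 1 omitted). The sort was made on Ly6G- cells, a gate that removes neutrophils, and Ly6g itself lay between 2.74 and 3.64 on 8 arrays and at 4.61 on low replicate 2. Ltf and Camp, granule genes of maturing neutrophils, stayed below a log2 value of 4 on every array. Mmp8 averaged 8.14, 7.50 and 5.35 in high, medium and low, and Csf3r 8.30, 7.86 and 7.16. Both fell in the order of Ly6c2, which no other gene of the list did. The list was not checked for genes that monocytes also express, so its sum is no measure of neutrophil content. The part of neutrophils in Aqp9 was not tested. Aqp7, the glycerol channel of fat cells, kept between 3.58 and 3.96 over the 9 arrays. Aqp3 and Aqp7 are next to each other on chromosome 4 in the RefSeq gene order, and neither set a gate apart.

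**Figure D4:**
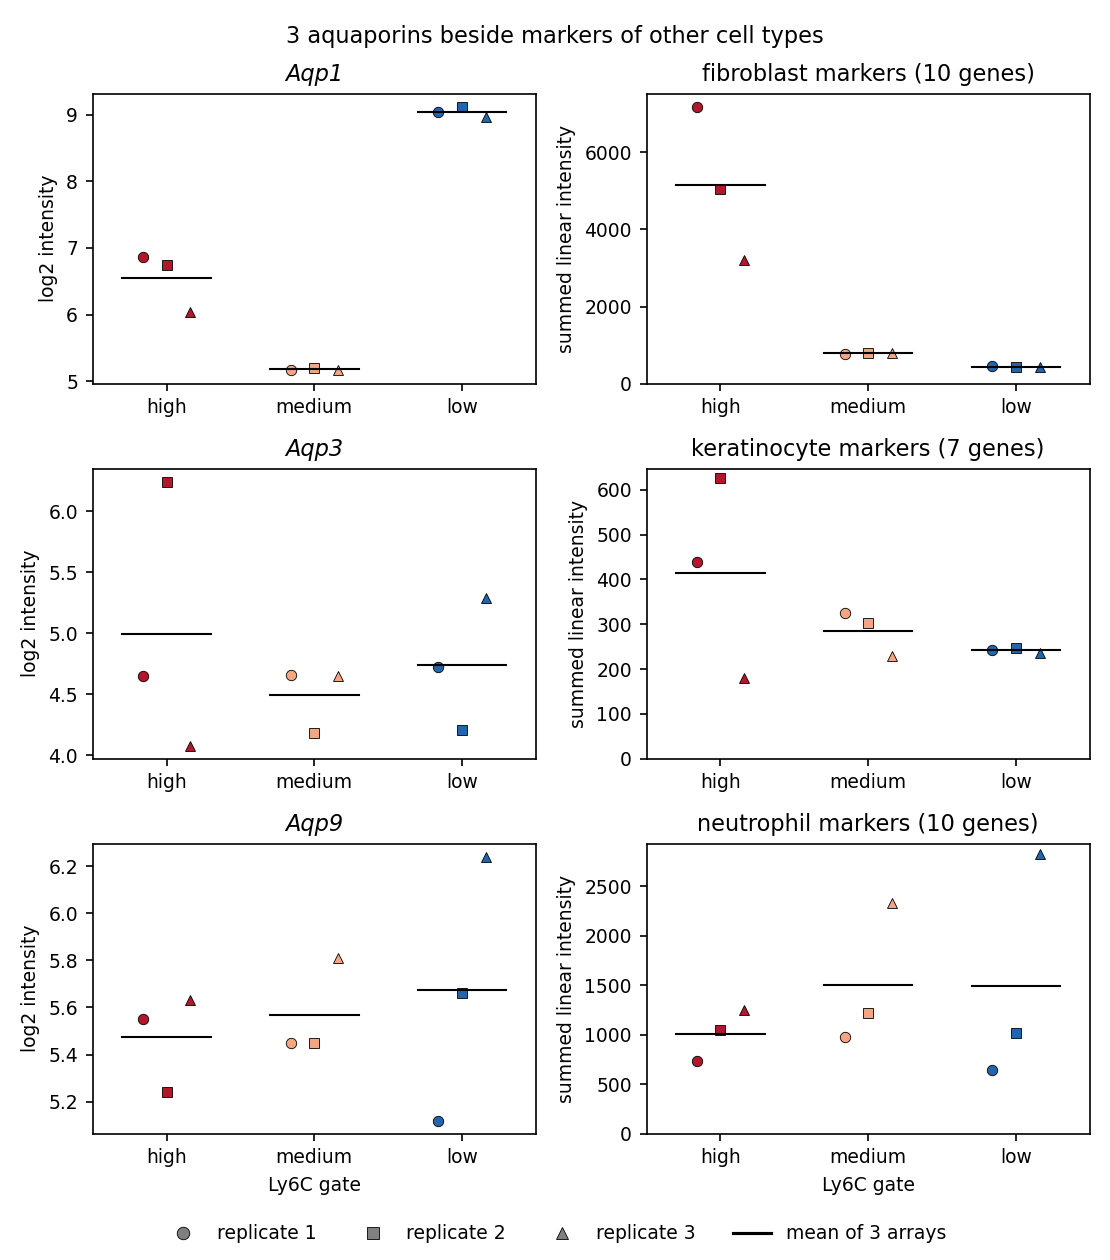
Log2 intensity of Aqp1, Aqp3 and Aqp9 (left) beside the summed linear intensity of fibroblast, keratinocyte and neutrophil markers (right; axes start at 0) on the 9 arrays; symbols mark replicates and bars the mean of 3 arrays. High replicate 2 is highest for both Aqp3 (6.24) and keratinocyte markers (625), replicate 3 is highest in every gate for both Aqp9 and neutrophil markers, and fibroblast markers are high in Ly6C high only.

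The remaining water channels and the unorthodox members were flat. Aqp4, the channel of astrocyte end feet and skeletal muscle, lay between 2.84 and 3.13 over the 9 arrays, Aqp8 between 3.13 and 3.33, and Aqp11, found in the endoplasmic reticulum, between 2.93 and 3.64. Aqp5, the channel of sweat and salivary glands, lay between 4.34 and 5.06, with medium replicate 1 highest. In every gate replicate 1 had the highest summed signal of 8 sweat gland and simple epithelial markers. The sums were 353 against 196 and 201 in high, 290 against 170 and 189 in medium, and 252 against 173 and 180 in low. Krt7, Cftr and Foxa1 stayed below a log2 value of 4 on every array. The largest terms in replicate 1 of every gate were Krt18 and Krt8 (7.34 and 6.36 in high). Aqp5 was likewise highest in replicate 1 of every gate. Replicates 1 to 3 read 4.60, 4.59 and 4.41 in high, 5.06, 4.52 and 4.60 in medium, and 4.68, 4.60 and 4.34 in low. Replicates 1 and 2 of high were thus nearly equal, and the array with the highest sum of all was not the highest for Aqp5. The part of epithelial cells in Aqp5 was not tested. Aqp4, Aqp5 and Aqp7 repeated a value to 3 decimals on 3 arrays, Aqp11 on 4 and Aqp8 on 5, which Aqp1, Aqp3 and Aqp9 did not. Over the 9 arrays, 4 of the 8 members, Aqp4, Aqp7, Aqp8 and Aqp11, never exceeded the array median, and 1, Aqp1, reached a log2 value of 6 on at least 3 arrays. The family members that were not selected, Aqp2, Aqp6, Aqp12 and Mip, lay between 4.79 and 5.36, 2.74 and 3.62, 3.15 and 3.31, and 4.61 and 5.34. With limma, 0 of these 4 passed in any comparison, and 0 did at an unadjusted p under 0.05. By overlap of arrays, Aqp2, the vasopressin-regulated channel of the kidney collecting duct, had low (5.17 to 5.18) above medium (4.79 to 5.11), a log2 difference of 0.17 (limma adjusted p = 0.613), with high at 5.07 to 5.36 across both.

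Genes around the functions of aquaporins showed smaller and mixed differences. Of 82 such genes measured, with the 4 aquaporins that were not selected, 10 passed between low and high (12.2%, against 5.67% of all genes), 4 between low and medium (4.88%, against 1.93%) and 0 between medium and high, where 11 had an unadjusted p under 0.05. The first count was 4 with low replicate 1 or 2 omitted, 5 with high replicate 3 and 6 with high replicate 2 omitted, and 5 with only low and high in the fit, and the second was 0 with low replicate 1, low replicate 2 or medium replicate 3 omitted, and 1 with medium replicate 1 or 2 omitted or with only low and medium in the fit. Of these 82 genes, 50 reached a log2 value of 6 on at least 3 arrays, against 6306 of the 22180 genes measured. Among such bright genes, 6 of 50 passed as higher and 8 as lower in low than in high, against 715 and 590 of 6306. Between low and medium, 1 passed as higher and 2 as lower, against 385 and 208. The shares over all genes are thus not a like background for this list. Glycerol and lipid droplet metabolism is the pathway served by Aqp3, Aqp7 and Aqp9. Of its 21 genes measured, 2 passed as higher in low than in high and 4 as lower. The shares were 3.35% and 2.32% over all genes, and 715 and 590 of 6306 over bright genes. The list holds bright and dim genes, so neither is a like background and nothing is read from its counts. The list median was -0.07. The phosphatidate phosphatase gene Lpin1 rose by 1.40 and the droplet coat gene Plin3 by 0.81 (limma adjusted p = 0.0345 and 0.0352). Dgat2, which makes triglyceride, fell by 0.94 and the mitochondrial glycerol phosphate dehydrogenase gene Gpd2 fell by 0.86 (limma adjusted p = 0.0281 and 0.00286). With an array omitted, the calls of Lpin1 and Plin3 failed in 6 of 9 fits apiece (at most 0.121 and 0.116, low replicate 1 omitted) and that of Dgat2 in 4 (at most 0.103, low replicate 2 omitted). Between low and medium, Lpin2 fell by 0.75 and Plin2 fell by 0.59 (limma adjusted p = 0.0209 and 0.0228), calls that failed in 4 and 5 of the 9 fits with an array omitted (at most 0.0861 and 0.0919, medium replicate 3 omitted). The Lpin2 call was also lost with the mean of its probe sets (0.190).

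For hydrogen peroxide, which Aqp3, Aqp8, Aqp9 and Aqp11 can carry, 1 of 22 genes passed as higher in low and 2 as lower against high, with a list median of -0.10. Prdx3, the mitochondrial peroxiredoxin, rose by 0.83 (limma adjusted p = 0.00801). The extracellular superoxide dismutase gene Sod3 fell by 1.40 and Cybb, the catalytic subunit of the phagocyte oxidase, fell by 0.81 (limma adjusted p = 0.0247 and 0.0305). These calls failed in 4 and 5 of the 9 fits with an array omitted (at most 0.0853 and 0.112, low replicate 1 omitted). The other oxidase subunits measured did not pass between low and high, at log2 differences of -0.07 for Cyba, 0.39 for Ncf1 and -0.65 for Ncf4 (limma adjusted p = 0.896, 0.103 and 0.103), although Ncf4 did with the replicate number as a block (0.0461) and among bright genes only (0.0497). Of 19 genes of cell volume and osmotic regulation, the potassium chloride cotransporter gene Slc12a7 rose by 0.95 (limma adjusted p = 0.00685) and 0 fell. Of 16 partners and regulators of aquaporins, among them the dystrophin complex that anchors Aqp4, limma passed 0 between low and high, against 5 at an unadjusted p under 0.05.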

How the data were processed

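RNA from 9 sorted samples was amplified with the NuGEN Applause WT-Amp ST system and hybridised to Affymetrix whole-transcript arrays, per the labels' protocols. The deposited values are log2 intensities per probe set. RMA (background correction, normalization between arrays, summary per probe set) is named in the submitters' processing notes, and its version and the genome build are not given in the sources used here. Values were used as deposited. Of 41345 probe sets, 23521 had 1 gene symbol, 1814 had several, and 16010 without an entry in the probe table were left out. The probe set with the highest mean over the arrays stood for a gene, which left 22180 genes, with no filter on dim genes.

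All 9 arrays entered a single fit (R 4.3.3, limma 3.58.1, lmFit and eBayes, two-sided, 6 residual degrees of freedom) with Benjamini-Hochberg adjustment over all genes at 0.05. The procedure was tested on simulated data. The number of arrays limits the precision. Members, gene lists and the rule for naming genes (up to 4 genes past the threshold with the largest difference per pathway list, the oxidase subunits, and the 3 most and least correlated genes) were chosen with earlier results of these data known, and the marker genes named in the text were picked from their lists after their values were seen. List members without a single-symbol probe set were not analysed here. Alternatives covered normalization, scaling, probe sets, a filter on dim genes, a replicate block, the gates in the fit, the prior and leaving out each array.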

Additional observations from a re-analysis of the deposited data

How the results depend on the processing

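The Aqp1 differences kept their direction under the 16 alternatives run for each: 2.24 to 2.65 for low minus high, -1.63 to -1.22 for medium minus high and 3.82 to 3.90 for low minus medium, the extremes all coming from leaving out 1 array. Of 363 differences of the 8 aquaporins under the alternatives, 363 moved by less than 1 SD within gates. That count is no measure of stability. Leaving out 1 of 3 arrays cannot move a difference past this SD, and the replicate block, another prior or a 2-gate fit leaves it unchanged. Several of the other 7 genes changed sign near 0, and Aqp3 ran from -0.71 to 0.37 in low minus high. Under the filter on dim genes only Aqp1 was left. The counts of genes called were 1258 for low versus high, 53 for medium versus high and 427 for low versus medium. With only the 2 gates compared in the fit they were 644, 1 and 211, and without 1 array in turn they ranged from 596 to 1243, from 2 to 72 and from 119 to 522. The first count fell by more than 1.5 times without low replicate 1 or 2 or high replicate 2 or 3, the second without any single array other than high replicates 1 and 3, and the last without any single medium array or low replicate 1 or 2. With only low and high in the fit, the calls of Lpin1, Plin3, Sod3, Cybb, Kdr and Csf3r were lost as well (limma adjusted p = 0.0542 to 0.0953). In low versus medium 307 genes were higher and 120 lower as deposited, against 242 and 162 with quantile normalization repeated. With the replicate block the counts were 1564, 61 and 629. Same-numbered arrays of different gates had correlated deviations of -0.017 to 0.309 in 9 pairs, against -0.183 to 0.151 in 18 pairs of other numbers. Of 9 arrays, 5 correlated best with an array of their own number. The labels do not say whether same-numbered arrays belong together, so the main fit had no block, and a pairing was not settled. The block changed 1 of 39 comparisons of named genes (Ncf4). Over these 39 comparisons the alternatives left 513 values on their side of the threshold, lost 102 calls, gained 3 and turned the direction of 1, Cyba in low versus high without high replicate 1 (0.09, limma adjusted p = 0.851, in a range of -0.22 to 0.09 over the omitted arrays). Probe sets near the lower end of the array limit what can be seen of Aqp4, Aqp7, Aqp8 and Aqp11.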
